A study of Homo sapiens with 8 samples.

Results

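The 10 genes described here are early response genes of 3 families together with ARC: the zinc finger transcription factors EGR1, EGR2 and EGR3, the orphan nuclear receptors NR4A1, NR4A2 and NR4A3, and the immediate early response genes IER2, IER3 and IER5. They were chosen by symbol, and each matched 1 row of the deposited counts, so 10 of the 58787 genes of the table are covered. The counts come from polyadenylated RNA of IMR32, an established neuroblastoma cell line with amplified MYCN and wild-type genotype per the labels. Cells attached for 48 h, received fresh medium, and were then given either CR31B at its IC50 (4 libraries; the labels give no concentration) or 0.1% DMSO as vehicle (4 libraries), and RNA was taken at 6 h. CR31B is a rocaglate, a compound class that clamps the helicase eIF4A onto messenger RNA and blocks translation initiation. The replicates are biological per the series text, all from this 1 cell line. Both libraries of replicate 1 were read paired-end and the other 6 single-end.

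Early response genes are transcribed within minutes of a growth factor, stress or depolarising signal, without new protein synthesis, when ERK and calcium signals act on factors such as SRF, the ternary complex factors and CREB already bound at their promoters. Their messenger RNAs are short-lived as a class, and their proteins are often lost quickly too. The EGR proteins bind GC-rich sites and are held back by the NAB corepressors, of which NAB2 is also an EGR target. The NR4A receptors act without a known ligand, alone or, for NR4A1 and NR4A2, with an RXR partner, and NR4A2 is known from dopaminergic neurons. IER2 and IER5 are small related nuclear proteins, IER5 acts on the heat shock factor HSF1 through the phosphatase PP2A, IER3 is a survival regulator, and ARC is a neuronal activity gene whose protein works at synapses.

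Promoters are shown for the 3 members that rose with CR31B in replicates 2 to 4 and for EGR1, whose start region is the textbook example of an SRF-driven promoter. Each sequence is the 250 bases before the RefSeq start site on GRCh38.p14, all on the plus strand: EGR1 at chr5:138465229-138465478, NR4A3 at chr9:99821635-99821884, IER2 at chr19:13150161-13150410 and IER5 at chr1:181088450-181088699. Capitals mark CArG boxes (the SRF motif), TGACG (the core of the CREB site, on either strand) and GAANNTTC (part of a heat shock element).
EGR1: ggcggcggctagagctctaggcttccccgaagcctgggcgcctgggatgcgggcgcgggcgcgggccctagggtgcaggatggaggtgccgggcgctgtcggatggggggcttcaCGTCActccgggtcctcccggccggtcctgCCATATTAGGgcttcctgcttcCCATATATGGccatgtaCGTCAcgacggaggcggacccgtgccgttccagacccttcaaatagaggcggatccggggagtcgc
NR4A3: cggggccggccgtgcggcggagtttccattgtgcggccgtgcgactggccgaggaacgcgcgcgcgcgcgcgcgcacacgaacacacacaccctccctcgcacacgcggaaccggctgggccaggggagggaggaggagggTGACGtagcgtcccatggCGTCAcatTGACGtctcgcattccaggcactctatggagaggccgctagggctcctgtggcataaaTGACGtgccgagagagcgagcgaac
IER2: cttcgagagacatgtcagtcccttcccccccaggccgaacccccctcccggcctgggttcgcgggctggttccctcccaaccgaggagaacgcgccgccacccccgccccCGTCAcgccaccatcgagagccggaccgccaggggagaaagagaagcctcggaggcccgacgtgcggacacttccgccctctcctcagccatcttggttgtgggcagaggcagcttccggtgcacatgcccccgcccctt
IER5: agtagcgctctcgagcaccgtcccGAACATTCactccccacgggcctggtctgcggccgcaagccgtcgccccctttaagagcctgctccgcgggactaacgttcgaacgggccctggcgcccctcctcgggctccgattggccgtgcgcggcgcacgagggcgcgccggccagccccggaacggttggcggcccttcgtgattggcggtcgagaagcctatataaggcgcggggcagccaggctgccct
The EGR1 window held 2 CArG boxes, 105 and 83 bases before the start, and 2 TGACG matches. The NR4A3 window held 4 TGACG matches and no CArG box, and the IER2 window 1 TGACG match. IER5 had neither, and 1 GAANNTTC match 226 bases before its start. Over all 35116 start sites of the same table, 1.16% of windows held a CArG box, 21.2% TGACG on either strand and 5.78% GAANNTTC. Further motifs searched on both strands were TGACGTCA, which contains TGACG, GCGNGGGCG (the EGR site), AAAGGTCA (the NR4A site) and TGANTCA (the AP-1 site), present in 1.65%, 8.41%, 1.05% and 6.57% of windows. Of these, EGR1 had 1 match to GCGNGGGCG, and no other match was found in the members' 9 windows. The inverted heat shock motif TTCNNGAA, found in 6.62% of windows, had no member match. The 2 heat shock motifs were added after the sequences were seen. Of the 9 start sites listed for 6 members, 2 held a CArG box, in EGR1 and EGR2, and 4 held TGACG.

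Library totals ranged from 43687828 to 64715535 counts, and levels are given as CPM (counts scaled to TMM library size). A count of 0 allows up to 3 counts, or 0.0444 to 0.0719 CPM by library. Replicate 1 as labelled had the opposite sign for 6822 of the 6901 genes called in replicates 2 to 4. It is therefore shown apart, and its libraries are named by label only. Directions in replicates 2 to 4 also follow the labels, which the counts alone cannot check. The 10 neuroblast markers summed to 5180 to 6940 CPM per library and all averaged above 1 CPM, with TH lowest at 2.28 ± 0.596 CPM (SD, n = 3) in the single-end CR31B libraries. In the single-end libraries GATA3 and HAND2 rose, with log2 fold changes of 1.78 ± 0.074 and 0.97 ± 0.059 (SE), and DBH fell, with -0.98 ± 0.21. The 12 markers of other cell types summed to 40 to 54.3 CPM in the libraries labelled CR31B and 35.4 to 51.4 CPM in those labelled DMSO. Of these, 9 averaged under 1 CPM, CD68 was at 0 throughout, 1 was called higher (PDGFRB, 0.38 ± 0.095) and 2 lower, among them PTPRC with a log2 fold change of -0.87 ± 0.31. The part of either marker list in the results below was not tested. In bulk RNA, fewer cells with a transcript and less of it per cell cannot be told apart.

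In the single-end libraries IER2, IER5 and NR4A3 rose with CR31B and IER3 fell. EGR1, EGR3, NR4A1, NR4A2 and ARC did not pass the test, and EGR2 was too low to be tested. The threshold was an adjusted p of 0.05 over all tested genes (edgeR quasi-likelihood test, Benjamini-Hochberg). Thus 3 of 9 tested members were called higher, where the background over 16696 genes was 23.8%, and 1 of 9 lower, where it was 17.6%. Both shares are near what all genes showed. The groups did not overlap for these 4 members, against 52.1% of all tested genes. With all 8 libraries under the labels as given, 0 of 9 tested members were called, as were 0 of 16518 genes (0%) by the same method. No member had an unadjusted p under 0.05 in that fit, and DESeq2 and limma voom also called 0 members.

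**Figure D1:**
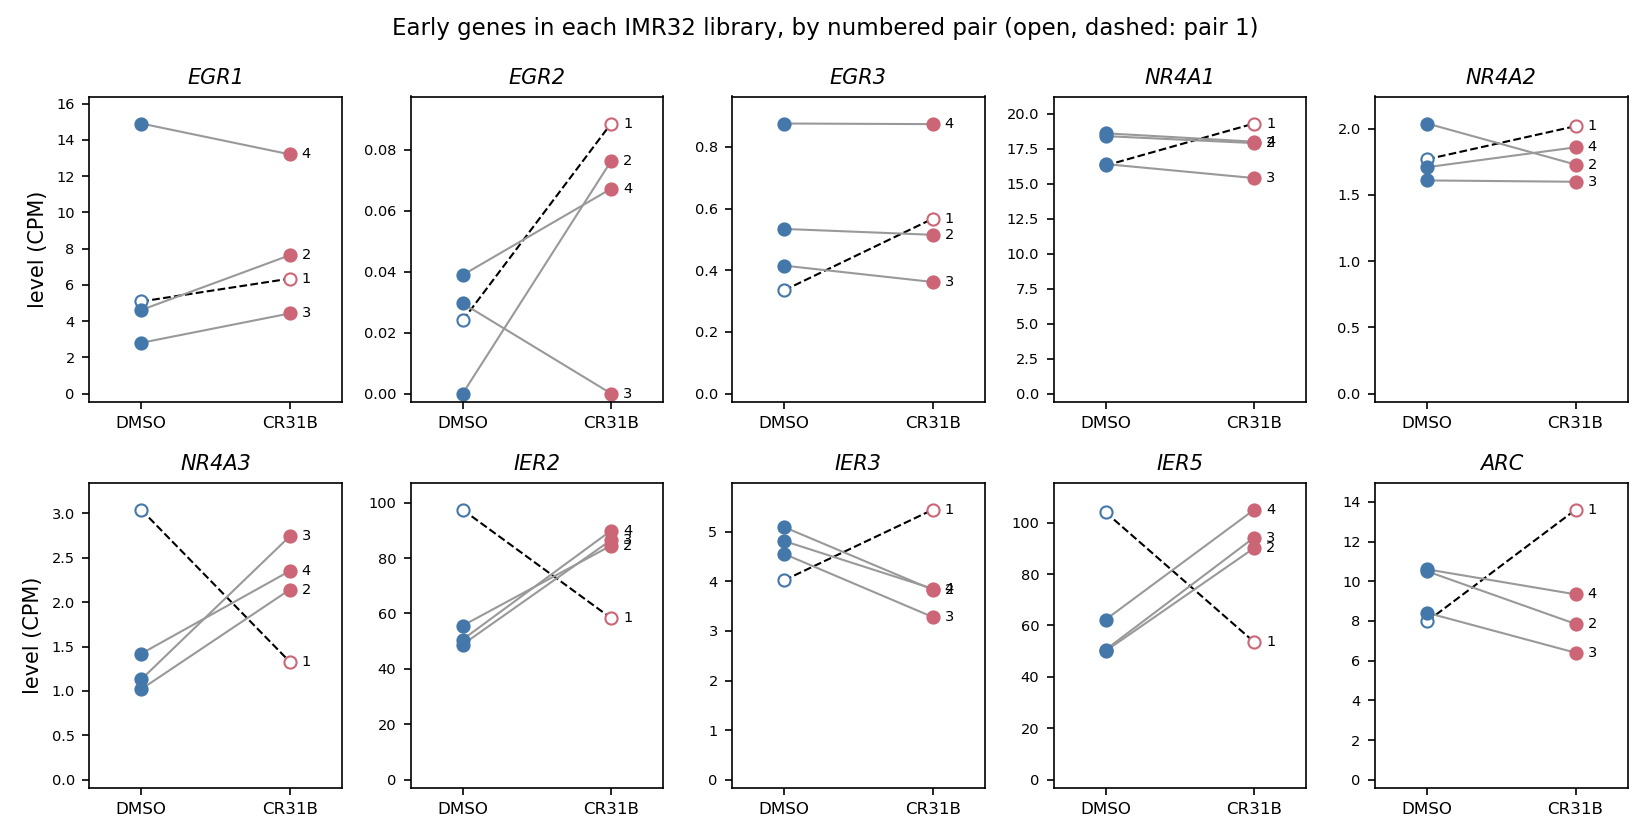
Level of each gene in CPM (vertical axes, separate scales from 0) in the libraries labelled DMSO and CR31B, with lines joining same-numbered libraries and numbers naming the pair. Filled points are the single-end pairs 2 to 4, and open points with dashed lines are pair 1. IER2, IER5 and NR4A3 rise in pairs 2 to 4 and fall in pair 1, while EGR1 and EGR3 are highest in both libraries of pair 4.

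Among the IER genes, IER2 (ENSG00000160888, chromosome 19, 13150415 to 13154908, plus strand, GRCh38) and IER5 (ENSG00000162783, chromosome 1, 181088712 to 181092899, plus strand) were the most abundant members and rose together. IER2 was 84.5, 86.5 and 89.9 CPM with CR31B in replicates 2, 3 and 4 and 55.6, 48.8 and 50.6 CPM with DMSO. The lowest CR31B library was well above the highest DMSO library. IER2 rose 1.69-fold, a log2 fold change of 0.75 ± 0.06 (SE; edgeR, adjusted p = 6.89e-06). In replicate 1 the order was opposite, with 58.3 CPM in the library labelled CR31B and 97.4 CPM in the one labelled DMSO.

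IER5 was 90.1, 94.2 and 105 CPM with CR31B and 50.1, 50.6 and 62.3 CPM with DMSO in replicates 2, 3 and 4. Replicate 4 was the highest of these in both groups, and the groups did not overlap. IER5 was thus 1.78-fold higher, a log2 fold change of 0.83 ± 0.088 (edgeR, adjusted p = 4.52e-05). The library labelled CR31B replicate 1 had 53.6 CPM of IER5 and the one labelled DMSO replicate 1 had 104 CPM. The former lay among the single-end DMSO libraries and the latter among the single-end CR31B libraries. As labelled, with all 8 libraries, IER2 had a log2 fold change of 0.39 ± 0.24 and IER5 of 0.40 ± 0.29, each with an adjusted p of 0.707 (edgeR).

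IER3 (ENSG00000137331, chromosome 6, 30743199 to 30744554, minus strand) went the other way. Its level was 3.83, 3.28 and 3.85 CPM with CR31B and 5.09, 4.55 and 4.81 CPM with DMSO in replicates 2, 3 and 4. All CR31B values lay under all DMSO values, by a smaller margin than for IER2. IER3 fell by 0.40 ± 0.12 on the log2 scale (edgeR, adjusted p = 0.0187). This call did not hold with GC and length offsets, where IER3 had -0.25 on the log2 scale (adjusted p = 0.115). It was also lost without DMSO replicate 2, without DMSO replicate 4 and without CR31B replicate 3, with log2 fold changes of -0.36, -0.39 and -0.32 and adjusted p of 0.0701, 0.0548 and 0.0532. With the pairing in the model the IER3 call held, at -0.40 ± 0.094 (edgeR, adjusted p = 0.00512). It also held with the pairing and the offsets together, at -0.25 (edgeR, adjusted p = 0.0466). Replicate 1 had 5.44 CPM of IER3 under the CR31B label and 4.02 under the DMSO label.

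Parts of IER2 and IER3 lie opposite other genes. An antisense gene covers 30.8% of the IER2 exon bases and IER3-AS1 covers 26.5% of those of IER3. The labels do not give the strand setting, and the deposited counts have only the word reverse in their name. The antisense gene at IER2, AC011446.2, had at most 0.0224 CPM, and IER3-AS1 had 0.419 to 1.22 CPM with a single-end log2 fold change of -0.54 (edgeR, adjusted p = 0.111). No member shares exon bases with another gene on its own strand.

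The 3 NR4A receptors did not move alike in value. NR4A3 (ENSG00000119508, chromosome 9, 99821855 to 99866891, plus strand) was 2.14, 2.74 and 2.35 CPM with CR31B and 1.02, 1.13 and 1.42 CPM with DMSO in replicates 2, 3 and 4, from 63 to 159 counts per library. Every CR31B library was above every DMSO library. The NR4A3 log2 fold change of 1.03 ± 0.17, a 2.04-fold rise, was the largest of the members (edgeR, adjusted p = 0.000945). Replicate 1 had 1.33 CPM under the CR31B label and 3.04 CPM under the DMSO label.

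NR4A1 (ENSG00000123358, chromosome 12, 52022832 to 52059507, plus strand), the founding member known as Nur77, was 17.9, 15.4 and 18.0 CPM with CR31B and 18.4, 16.4 and 18.6 CPM with DMSO. Replicate 3 was lowest in both groups, and the groups overlapped. Its log2 fold change was -0.05 with a 95% interval of -0.25 to 0.14 and an adjusted p of 0.652 (edgeR). NR4A2 (ENSG00000153234, chromosome 2, 156324432 to 156342348, minus strand) was 1.73, 1.60 and 1.86 CPM with CR31B and 2.04, 1.61 and 1.71 CPM with DMSO. These groups also overlapped. The NR4A2 log2 fold change was -0.05 with a 95% interval of -0.39 to 0.29 (adjusted p = 0.832). Neither interval reached the NR4A3 value. The difference between NR4A genes was not tested as such. Replicate 1 had 19.3 CPM of NR4A1 under the CR31B label and 16.3 CPM under the DMSO label. For NR4A2 these were 2.02 and 1.77 CPM.

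EGR1 (ENSG00000120738, chromosome 5, 138465490 to 138469315, plus strand) differed more between cultures than between treatments. It was 7.63, 4.42 and 13.2 CPM with CR31B and 4.61, 2.80 and 14.9 CPM with DMSO in replicates 2, 3 and 4. Replicate 4 was highest and replicate 3 lowest in both groups, a 5.32-fold range among the single-end DMSO libraries, and the groups overlapped. The pair differences in log2 CPM were 0.72, 0.65 and -0.17 for replicates 2, 3 and 4, and 0.32 for replicate 1, where the libraries labelled CR31B and DMSO had 6.34 and 5.08 CPM. The log2 fold change in the single-end libraries was 0.19 ± 0.54 (SE), with a 95% interval of -1.01 to 1.39 and an adjusted p of 0.804 (edgeR). With the pairing in the model it was 0.34 ± 0.16 (adjusted p = 0.0986). Without DMSO replicate 4 the unpaired value was 1.2 with an adjusted p of 0.0438, while without CR31B replicate 4 it was -0.29 with an adjusted p of 0.75, and it was also below 0 without DMSO replicate 2 or 3 (-0.059 and -0.22).

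EGR3, on chromosome 8, had the same order of cultures at a much lower level. It was 0.515, 0.362 and 0.874 CPM with CR31B and 0.534, 0.415 and 0.876 CPM with DMSO in replicates 2, 3 and 4, from 21 to 45 counts. Among these, replicate 4 was again highest and replicate 3 lowest in both groups. Replicate 1 had 0.567 CPM of EGR3 under the CR31B label and 0.335 CPM under the DMSO label, a difference of 0.73 in log2 CPM. The differences in replicates 2, 3 and 4 were -0.05, -0.19 and 0. The EGR3 log2 fold change was -0.06, with a 95% interval of -0.87 to 0.75 and an adjusted p of 0.908 (edgeR). EGR2 (ENSG00000122877, chromosome 10, 62811996 to 62919900, minus strand) had 4, 0 and 3 counts with CR31B and 0, 2 and 2 with DMSO in replicates 2, 3 and 4. Replicate 1 had 5 counts under the CR31B label and 1 under the DMSO label. EGR2 did not pass the filter on low counts, and no difference was detectable at this depth.

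ARC (ENSG00000198576), also on chromosome 8, was 7.85, 6.40 and 9.34 CPM with CR31B and 10.5, 8.41 and 10.6 CPM with DMSO in replicates 2, 3 and 4. It was lower with CR31B within each of these pairs, with differences of -0.42, -0.39 and -0.18 in log2 CPM, but the groups overlapped. ARC had a log2 fold change of -0.32 ± 0.14 (edgeR, adjusted p = 0.0956). Blocking on replicate gave -0.33 ± 0.078 (adjusted p = 0.0053), so the call depended on whether the pairing was in the model. In replicate 1 ARC was 13.6 CPM in the library labelled CR31B, the highest of all 8, and 7.98 CPM in the one labelled DMSO.

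**Figure D2:**
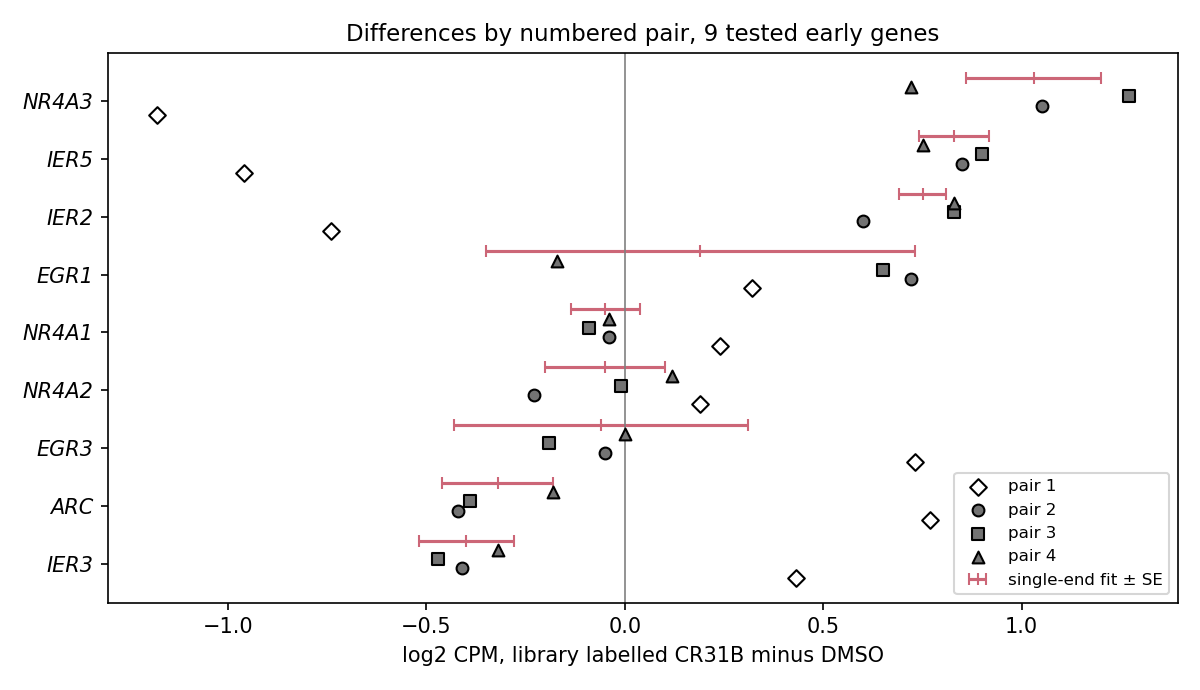
Difference in log2 CPM, library labelled CR31B minus DMSO (horizontal axis), for the 9 tested genes, with one symbol per numbered pair and the single-end log2 fold change ± SE in red. Pair 1 (open diamonds) lies on the other side of 0 from the fit for every gene shown except EGR1.

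All 4 called members had the opposite sign in replicate 1, beside 6822 of 6901 called genes in all. The difference between the layouts was tested as an interaction of treatment with layout, in which 5 of 9 tested members passed an adjusted p of 0.05, against 42.5% of 16518 genes (edgeR quasi-likelihood, Benjamini-Hochberg). The paired-end difference minus the single-end difference was -2.22 ± 0.35 for NR4A3, -1.79 ± 0.18 for IER5 and -1.49 ± 0.12 for IER2, with an adjusted p of 0.000549 or less. It was 0.83 ± 0.23 for IER3 and 1.09 ± 0.29 for ARC, with adjusted p of 0.0147 and 0.0112. Each paired-end group is 1 library, assumed to vary like the single-end ones. Replicate 1 was set apart because earlier results of these data showed it running the other way. The interaction therefore describes a split already known and is not independent support for it. Layout, replicate 1 and an exchange of labels, in that pair or in replicates 2 to 4, cannot be told apart here. This bears on every value that uses replicate 1 as labelled, and on the direction given for replicates 2 to 4.

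Per kilobase of exon, the levels in the single-end DMSO libraries ordered the members from IER2 down to EGR2. Mean RPKM was 16.8 for IER2 and 13.0 for IER5, with ranges that did not overlap. IER3 (3.55 RPKM) and ARC (3.29 RPKM) overlapped each other, and ARC lay just above NR4A1 (2.44 RPKM). The order of ARC and NR4A1 rests on their merged exon lengths of 2991 and 7295 bases. In CPM, NR4A1 was higher than ARC in these libraries, with means of 17.8 and 9.84. EGR1 had a mean of 2.37 RPKM and a range from 0.892 to 4.75, which spanned IER3, ARC and NR4A1. NR4A2 (0.451 RPKM) was above NR4A3 (0.188 RPKM), which overlapped EGR3 (0.125 RPKM) in part, and EGR2 was lowest with 0.00619 RPKM. With CR31B the NR4A3 mean of 0.382 RPKM came near that of NR4A2, 0.437 RPKM, and their ranges overlapped.

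**Figure D3:**
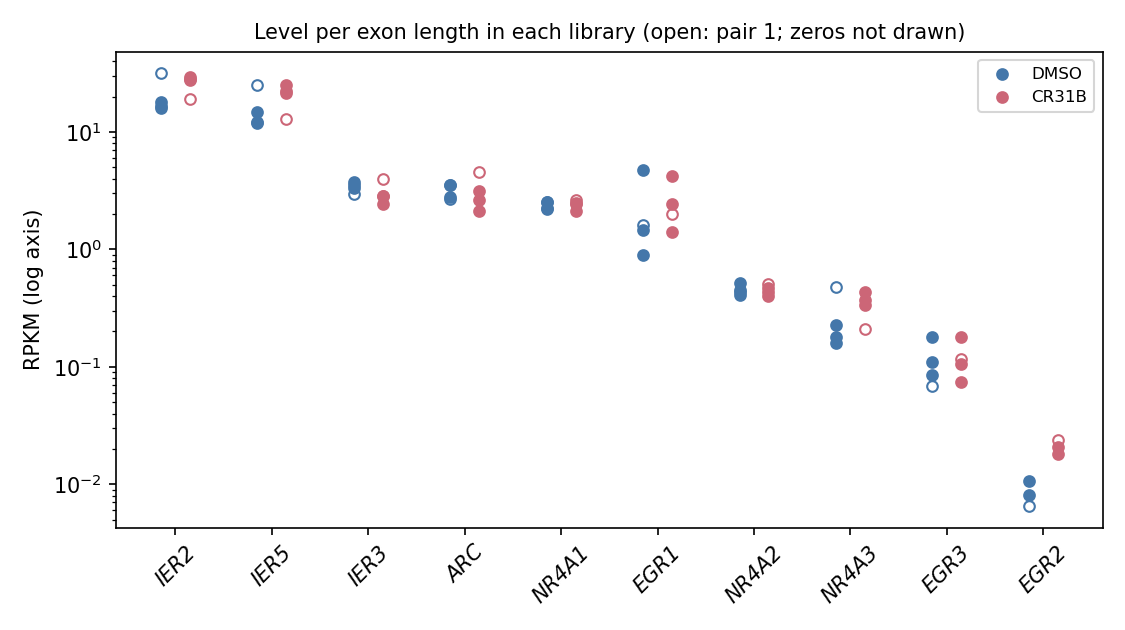
Level per exon length (RPKM, log axis) in each library for the 10 genes, in falling order of their single-end DMSO mean, with pair 1 as open points. Means in the single-end DMSO libraries run from 16.8 RPKM for IER2 to 0.00619 for EGR2, whose libraries with 0 counts are not drawn.

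The members' 3′ untranslated regions were searched for ATTTA, the core of the AU-rich elements that mark short-lived messenger RNAs. Of the 10 members, 8 held at least 1 copy, against 70.3% of 18789 genes with an annotated 3′ untranslated region of at least 100 bases. The median of all these genes was 1.43 copies per kilobase, and 6 members were above it. Among the called members the density was 6.64 per kilobase in IER3, 3.32 in IER5 and 3.31 in NR4A3, and 0 in IER2. ARC also held none. The windows of 30 bases with most copies are shown for the called members, with ATTTA in capitals, from GENCODE 29 transcripts.
IER3: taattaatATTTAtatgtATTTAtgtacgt
IER5: ttcctttATTTATTTATTTATTTAattata
NR4A3: ggttgtgttttatATTTAggcattggggga
IER5 held 4 overlapping copies in its window and 3 copies of the longer element TTATTTATT, which 8.45% of the genes had and no other member had. In exon number the members also differed. IER5 has 1 exon, IER3, EGR1 and EGR3 have 2, ARC has 3, and NR4A2 has 8 in their principal transcripts.

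Genes that act with the members were read next, from a list of 10 partners and brakes. Of these, 5 of 10 were called higher and 3 lower in the single-end libraries, beside 23.8% and 17.6% of all tested genes. The list median was 0.168, against -0.00698 for all tested genes. NAB2, a corepressor that binds EGR proteins and is itself an EGR target, moved most. It was 136, 152 and 176 CPM with CR31B and 38.5, 47.0 and 55.8 CPM with DMSO in replicates 2, 3 and 4. The groups were far apart, although EGR1 was not called. The NAB2 log2 fold change was 1.72 ± 0.13 with an adjusted p of 4.83e-06 (edgeR). Replicate 1 had 38.6 CPM of NAB2 under the CR31B label and 138 CPM under the DMSO label. All 8 called genes of the list had the opposite sign in replicate 1, beside 6822 of 6901 called genes in all. RXRG, a partner of NR4A1 and NR4A2, rose with a log2 fold change of 0.97 ± 0.096, while RXRA fell with -0.46 ± 0.059. The 4 PP2A subunits of the kind that IER5 binds moved in both directions. PPP2R2A and PPP2R2B rose, with 0.71 and 0.52, and PPP2R2C and PPP2R2D fell, with -0.44 and -0.36. HSF1 did not pass, with -0.10 ± 0.063 (edgeR, adjusted p = 0.227). Blocking on replicate gave HSF1 -0.10 ± 0.039 (adjusted p = 0.047), so its call depended on the pairing.

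Of 46 other early response genes, 41 were tested, and 21 were called higher and 0 lower in the single-end libraries (18 to 27 and 0 to 2 over the alternatives). Over all tested genes the shares were 23.8% and 17.6%. The list median was 0.376, and in replicate 1 all 21 called genes moved the other way, beside 6822 of 6901 called genes in all. With all 8 libraries as labelled, 0 of 40 tested were called. DUSP6, a phosphatase that switches off ERK, had the largest value with a log2 fold change of 2.74 ± 0.18, followed by the AP-1 factors JUN with 1.89 ± 0.12 and FOSL2 with 1.66 ± 0.087. IER5L, a gene related to IER5, was 29.4 CPM with CR31B and 14.6 with DMSO on average in the single-end libraries, a log2 fold change of 1.01 ± 0.082. IER5L is named after its value was seen. Genes on the opposite strand cover 40.5% of the DUSP6 exon bases and 39.2% of those of IER5L. FOS, another classic early gene, was not called, at 1.54 CPM with CR31B and 1.79 CPM with DMSO on average and an adjusted p of 0.565 (edgeR).

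**Figure D4:**
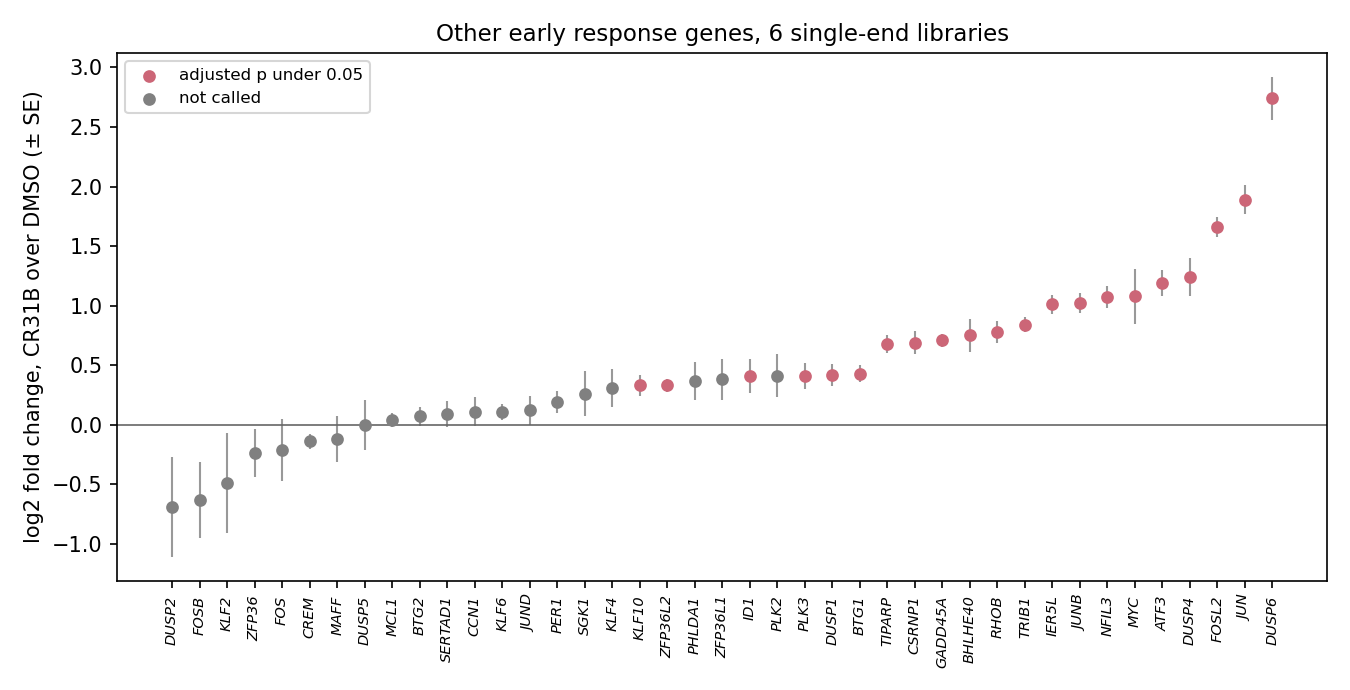
Log2 fold change (vertical axis, CR31B over DMSO, ± SE) of the 41 tested other early response genes in the 6 single-end libraries, in rising order. Red points passed an adjusted p of 0.05, and all 21 of them lie above 0, with DUSP6, JUN and FOSL2 highest.

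Among 16 factors known to act on early gene promoters, 15 were tested, with 8 called higher and 2 lower, again beside 23.8% and 17.6% of all tested genes. EP300, a histone acetyltransferase and coactivator, had a log2 fold change of 1.68 ± 0.071, and MEF2D and MEF2A had 0.83 ± 0.051 and 0.63 ± 0.051. SRF was not called, with 0.05 ± 0.052, and CREB1 rose with 0.51 ± 0.047. Of 12 ERK cascade kinases 3 were called higher and 1 lower, near the 23.8% and below the 17.6% of all tested genes, with a list median of -0.00798. The 3 called higher were RPS6KA5 (0.83 ± 0.16), RPS6KA3 (0.53 ± 0.06) and MAP2K1 (0.53 ± 0.054). Of 10 other neuronal activity genes 8 were tested, and 3 were called higher and 0 lower, against the same 23.8% and 17.6%. The 3 were VGF (1.25 ± 0.18), BDNF (0.99 ± 0.081) and HOMER1 (0.55 ± 0.059). In replicate 1 all 10 called upstream factors, all 4 called ERK kinases and all 3 called neuronal genes had the opposite sign. The share over all called genes was 6822 of 6901.

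For the 5 members that averaged at least 5 CPM, the genes closest in pattern were found by Pearson's r of log2 CPM over the 8 libraries among 10695 others. The r values describe these libraries, which share treatment and layout, and have no test. IER2 was closest to CCDC91 (r = 0.999) and PDE4B (0.998), and IER5 to AHCYL1 (0.999) and FBXW7 (0.997). NR4A1 was closest to RYK (0.977) and AGAP3 (0.971), and ARC to KLF13 (0.989) and CNNM3 (0.981). EGR1 had the lowest best match, TLCD3A with 0.882, followed by FBH1 with 0.881. CCDC91 averaged 104 CPM with CR31B and 78.4 with DMSO in the single-end libraries, and IER2 87 and 51.6 CPM. For this pair a high r did not mean a like size of change. TLCD3A averaged 28.5 and 27.7 CPM, and EGR1 8.43 and 7.43 CPM.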

How the data were processed

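The authors deposited raw counts per Ensembl gene, 1 column per library, without normalisation. The submitters' processing notes name STAR 2.7.2b, FastQC 0.11.7, edgeR 3.36.0, limma 3.50.3 and the build GRCh38, with no roles. The counting tool and annotation are not given in the sources used here. The only mark of a strand setting is the word reverse in the name of the deposited counts. Per the labels' protocols, 250 ng of RNA was amplified for 15 PCR cycles with a kit named there as TruSeq small RNA and read for 75 cycles. The column header of CR31B replicate 4 lacks a first letter but names no other sample. Of 58787 identifiers 58515 were in GENCODE 29, which gave coordinates, exon lengths and transcripts.

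The test was edgeR 4.0.16 (R 4.3.3; glmQLFit and glmQLFTest, two-sided) on the deposited counts after filterByExpr and TMM, with Benjamini-Hochberg adjustment over all tested genes and a threshold of 0.05. The fits were all 8 libraries with layout as a covariate, the 6 single-end libraries, and the interaction of treatment with layout. CPM used TMM totals of all 8 libraries, and log2 CPM a prior count of 1. RPKM divided CPM by merged exon length. Intervals use the fit's degrees of freedom, and counting error covers neither PCR duplicates nor culture. No 2 libraries agreed within sampling noise (smallest mean chi-square per gene 7.16).

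Same-numbered single-end libraries deviated together from their group means (replicates 2, 3 and 4 had correlations across genes of 0.206, 0.384 and 0.157). They were taken as pairs, and the blocked fit is given for the members and named partners whose call it changed. The members and the 7 other lists (116 entries) were chosen with earlier results of these data known. Named genes were the 10 members, up to 3 called genes per list with at least 5 CPM and the largest change, and the 2 genes most like each member of at least 5 CPM. Other genes of the lists were named after their values were seen, and some list genes are not reported here. Alternatives were other scalings, filters, tools (DESeq2 1.42.0, limma voom 3.58.1), offsets on GC content and length (99.9% of tested genes), the block, and leaving out libraries or pairs. Scripts were tested on simulated data. Promoters come from RefSeq (GRCh38.p14), with 6 of 10 members listed.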

Additional observations from a re-analysis of the deposited data

Results flagged for a closer look

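A group of 5 members had a paired-end difference that departed from the single-end difference in the interaction test (edgeR quasi-likelihood, Benjamini-Hochberg), 5 of 9 tested beside 42.5% of all 16518 genes. The departure was -2.22 for NR4A3, -1.49 for IER2, -1.79 for IER5, 0.83 for IER3 and 1.09 for ARC on the log2 scale. In each the sign in replicate 1 was opposite to that in replicates 2 to 4. That split was known from earlier results of these data, so the interaction is not independent support for it. Among the 20 sets of 4 libraries (10 members in each group), 1 held a library far from the other 3, where chance gives about 1. It was IER2 in the libraries labelled DMSO, where replicate 1 stood apart with a gap of 0.86 of the whole range.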

How the results depend on the processing

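Under all 8 libraries the count of called members stayed at 0 with every other scaling, filter, tool, model and offset run, and ranged from 0 to 4 when a library or pair was left out; it was 4 without either or both libraries of replicate 1. In the single-end libraries IER2, IER5 and NR4A3 kept their direction and call under all 19 alternatives, with log2 fold changes of 0.66 to 0.83, 0.73 to 0.94 and 0.88 to 1.2. Members called lower numbered 1, but 2 with the replicate block, upper quartile scaling, total count scaling, no low-count filter, DESeq2, or the replicate block joined to offsets on GC and length, and 0 with these offsets alone; the range was 0 to 2 when libraries were left out. The second was ARC, with adjusted p from 0.00501 to 0.301 over its alternatives. The replicate block changed the call of no other member. Calls over all genes in either direction moved too, from 6901 of 16696 as reported to 8540 with the block. They were 7519 with upper quartile scaling, 7375 with total counts, 6709 with DESeq2 and 6619 with GC and length offsets. With block and offsets joined they were 8434, and with no low-count filter 7326 of 29503. EGR1 was called without DMSO replicate 4, and ARC without CR31B replicate 4 (-0.46) or DMSO replicate 3 (-0.43). The IER3 call was lost without replicate 2 or 4 of both groups. Over the alternatives lower calls ranged from 0 to 2 among other early genes (0 as reported), 1 to 5 among partners (3 as reported), 0 to 3 among upstream factors (2 as reported), 0 to 4 among ERK kinases (1 as reported), 0 to 2 among neuronal genes (0 as reported) and 1 to 3 among other-cell markers (2 as reported), and higher calls from 2 to 5 among neuroblast markers (4 as reported) and 0 to 1 among other-cell markers (1 as reported). Upper quartile scaling moved the median log2 fold change of all genes in the single-end libraries from -0.00698 to -0.102, and the share of higher calls from 57.5% to 40%; with total counts it was 43.1%. In the interaction fit NR4A1 passed with upper quartile scaling (0.51) and total counts (0.47).

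Values near 0 changed sign. With all 8 libraries NR4A1 was -0.024 with upper quartile and -0.016 with total count scaling, and NR4A2 -0.031 and -0.024. When libraries were left out, all-8 values ranged from -0.12 to 0.94 for EGR1, -0.13 to 0.41 for EGR3, -0.056 to 0.082 for NR4A1, -0.048 to 0.10 for NR4A2 and -0.33 to 0.09 for ARC, and single-end values from -0.29 to 1.2 for EGR1, -0.45 to 0.28 for EGR3, -0.12 to 0.019 for NR4A1 and -0.13 to 0.059 for NR4A2. The EGR1 interaction ranged from -0.85 to 0.61. The cause of these changes was not tested. EGR2 had 0 to 5 counts per library and EGR3 14 to 45, which limits their precision, as does the spread between replicates for EGR3.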
